A study of Aedes albopictus with 6 samples.

Results

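Small RNA tags that were counted in male Aedes albopictus, the Asian tiger mosquito, and listed at 0 in females are described here. They were chosen from the deposited small RNA table as tags with 10 or more counts in the male column and 0 in the female column, which gave 822 of 22773 listed tags (3.61%). Because both counts were used to choose them, their counts and their direction are a description and were not tested. The study sequenced small RNAs of 2-day-old adults, with 3 libraries labelled Female, made from virgin females, and 3 labelled Male, all from whole bodies. The table gives 1 count column per sex, so every value below stands for a whole sex and has no replicates behind it. The sources used here give neither the strain nor the number of animals per library. In whole bodies, a lower number of cells of a type and less small RNA per cell cannot be told apart.

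PIWI-interacting RNAs (piRNAs) are small RNAs bound by PIWI proteins that silence transposons, best known from animal germ lines. They are cut from long single-stranded precursor transcripts, many of which come from dense genomic clusters. A piRNA's 5′ end is set first and its 3′ end is trimmed afterwards, so products of the same 5′ end can differ in length. Aedes mosquitoes have an enlarged PIWI family and make piRNAs in the body outside the gonads as well. The table names tags by length and position only, and no tag was matched to a gene, a transposon or a known piRNA here.

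The totals behind the columns were 2677063 counts for females and 2060047 for males, and TPM is the count scaled by that total, with no length term. TMM and RLE factors, named where they matter, are other ways to scale the columns to each other, computed from the listed tags. The smallest count above 0 in the table was 2, so a listed 0 can stand for 0 or 1 count. The list holds tags that were at least 2-fold apart between the sexes, so a tag absent from it may still be present in both sexes. At low counts the limit appeared higher. Around the 6 largest groups described below, no listed tag of 2 female counts (0.75 TPM) had fewer than 9 male counts (4.37 TPM). Low-count tags more than 2-fold apart may thus be absent from the list as well. Brackets give 95% intervals, which cover counting error only. For shares of tags they treat tags as independent, although many overlap, and are likely too narrow.

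The male-alone tags were mostly low in count, and a short list of tags stood well above the rest. Together they held 12414 male counts, a summed level of 6026 TPM, which was 5.58% of the male counts of all listed tags. The median tag had 12 counts, the quartiles were 11 and 15, and the highest had 140. At the lower edge, 203 tags had exactly 10 counts (4.85 TPM), while 361 tags with 0 female counts had 9 (4.37 TPM) and lay just outside. On the other edge, 523 tags had 10 or more male counts but 2 female counts (0.75 TPM). The set was thus drawn inside a continuous range of male counts, and its male edge corresponds to no gap in the data. On the female side, the smallest listed count above 0 was 2. Counts of 20 or more were found for 112 tags, of 50 or more for 13 and of 100 or more for 4. The 12 highest held 8.17% of the counts.

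**Figure D1:**
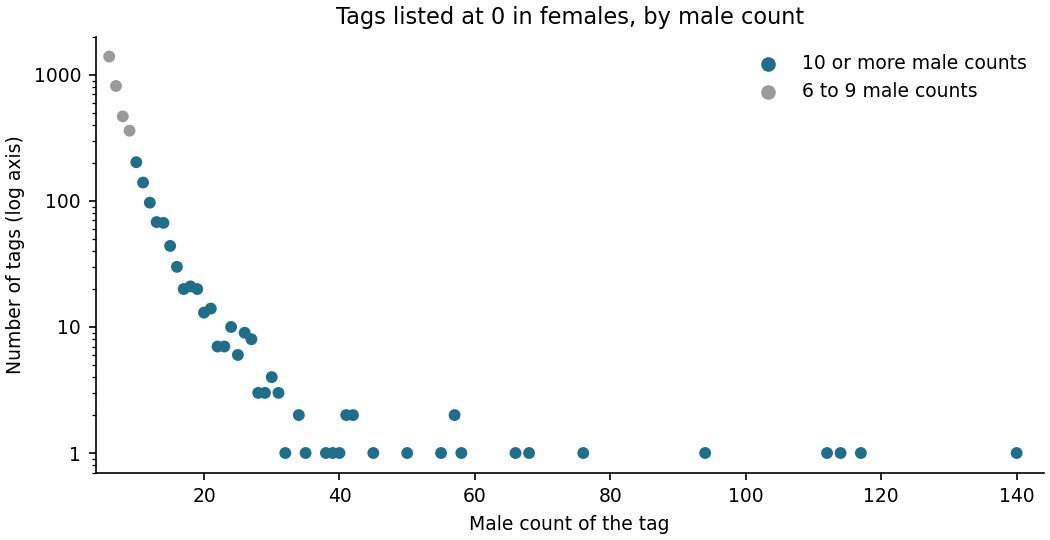
Number of tags listed at 0 in females (y axis, log scale) at each male count (x axis). Blue points are the 822 tags with 10 or more male counts and grey points those with 6 to 9; the numbers fall without a break from 361 tags at 9 counts to 203 at 10, and 1 tag stands at 140.

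Several of the tags with the most counts had no other listed tag nearby. The highest, a 30-nt tag at NW_021837045.1 190118575 to 190118604, had 140 counts (118 to 165), or 68.0 TPM, and its nearest listed tag was 105334 bases away. The second, a 27-nt tag at NW_021838222.1 753207 to 753233, had 117 counts (97 to 140) and lay 264552 bases from any listed tag. The sixth, a 28-nt tag at NW_021838798.1 45512680 to 45512707, had 76 counts (60 to 95) and its nearest listed tag was 1147401 bases away. These 3 tags stood alone on long stretches of sequence in which no other tag reached the list. In all, 101 of the 822 (12.3%, 10.1 to 14.7) had no listed tag within 10 kb, against 26.7% (26.2 to 27.3) of all listed tags and 15.3% (14.4 to 16.2) of the other male-higher tags. Solitary tags were thus less frequent among male-alone tags than over the list. The next of these solitary tags were at NW_021838429.1 704397 with 50 counts, NW_021838410.1 10979749 with 45 and NW_021838632.1 4854382 with 35, and they had 29, 28 and 27 nt.

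Other highly counted tags lay beside male-alone tags and no other listed tag. The next after the first and second, a 27-nt tag at NW_021838721.1 1633689 to 1633715, had 114 counts (94 to 137). It overlapped a 26-nt tag of 19 counts with the same last base and a 33-nt tag of 14 counts, and another tag of 14 counts lay 546 bases away. All 4 were listed at 0 in females and together held 161 male counts, and no further listed tag was within 10 kb. The 28-nt tag at NW_021838909.1 4675186, with 58 counts, overlapped a 29-nt tag of 30 counts. The 27-nt tag at NW_021838410.1 1673787, with 57 counts, lay 180 bases from a 27-nt tag of 11 counts. Such groups of 2 or more male-alone tags with no other listed tag within 10 kb numbered 9 and held 20 tags.

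A pair of highly counted tags lay near tags that were higher in females. The 27-nt tag at NW_021837711.1 18232197, with 57 counts, had 5 listed neighbours within 10 kb, the nearest 8278 bases away. All 5 were higher in females, with 58 female and 2 male counts in sum. The 28-nt tag at NW_021838843.1 2247815, with 55 counts, had 1 neighbour 2759 bases away, with 19 female and 6 male counts. Of the 822 tags, 49 (5.96%, 4.44 to 7.80) had female-higher neighbours alone within 10 kb, 97 (11.8%, 9.67 to 14.2) had male-higher neighbours alone and 555 (67.5%, 64.2 to 70.7) had both kinds. The remaining 121 had no neighbour other than male-alone tags.

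The clearest case of a shared position was a stack on NW_021837156.1 in which 5 listed tags began at base 57227850. The tags of 29, 30 and 31 nt had 112, 94 and 68 male counts and were listed at 0 in females. The 27-nt tag of the stack had 20 male and 2 female counts, and the 32-nt tag, the highest, had 188 male and 2 female counts. Male counts were thus spread over several lengths from the same first base, and the female column held at most 2 counts at any of them. Tags of 28 and 29 nt starting at the next base added 14 and 13 male counts, again with 0 in females. A 28-nt tag starting 3 bases earlier, at 57227847, had 98 male and 8 female counts. A listed 0 and a count of 2, the smallest the table holds, thus stood side by side in females among lengths of the same stack. The 107 listed tags within 10 kb that neither overlapped the stack nor were male-alone held 2172 female and 1466 male counts, and 39 of them were higher in males.

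**Figure D2:**
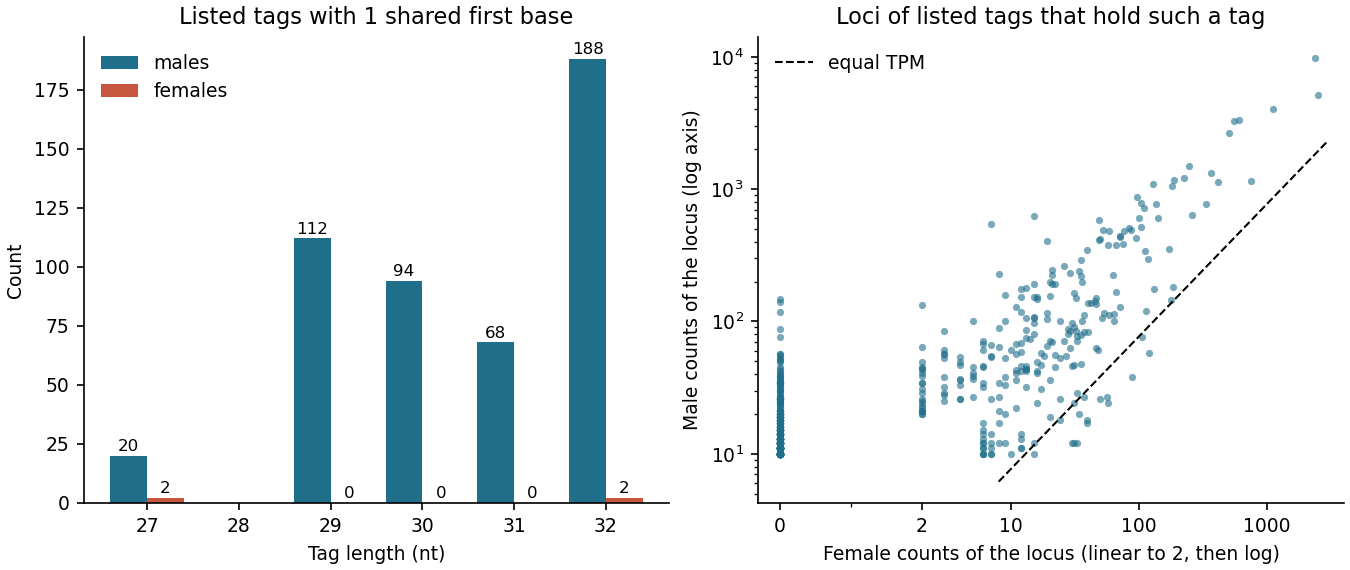
Left, counts in males (blue) and females (red) of the 5 listed tags that begin at the same base on NW_021837156.1, by tag length in nt. Right, summed male counts (y axis, log scale) against summed female counts (x axis, linear to 2 and then log) of the 647 loci of overlapping listed tags that hold at least 1 male-alone tag, whose counts are included; the dashed line marks equal TPM, 387 loci stand at 0 female counts and 15 lie below the line.

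A similar stack carried the eighth tag, a 30-nt tag at NW_021838602.1 276057 to 276086 with 66 counts (51 to 84). Tags of 28 and 31 nt with the same first base had 25 and 8 male counts and 0 in females. A 27-nt tag 4 bases further in, ending 1 base later, had 14 male and 2 female counts. Among the 822 tags, 221 (26.9%, 23.9 to 30.1) shared their first base with another listed tag and 232 (28.2%, 25.2 to 31.4) shared their last base. The same shares over all listed tags were not computed. Sharing an end is therefore not shown to be particular to the male-alone tags. As strand was not used here, which of these is the 5′ end is not known. Among themselves, male-alone tags formed 30 stacks with a common first base, holding 67 tags, and 46 with a common last base, holding 94. The stack with the most tags, 4 of 25, 27, 31 and 33 nt starting at NW_021838798.1 2994831, had 27, 13, 10 and 11 counts.

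For many tags, the listed 0 in females belonged to the exact tag and not to its position. Of the 822, 486 (59.1%, 55.7 to 62.5) overlapped another listed tag, against 33.9% (33.3 to 34.5) of all listed tags and 50.5% (49.2 to 51.7) of the other male-higher tags, and 406 (49.4%, 45.9 to 52.9) overlapped a tag that had female counts. In these 406, the highest female count among the overlapping tags had a median of 11 and quartiles of 6 and 24, and reached 100 or more for 27 tags. The extreme was the 29-nt tag at NW_021837156.1 57217608, which had 12 male counts and overlapped a 25-nt tag with 2064 female and 4209 male counts. The 25-nt tag at NW_021839020.1 25193105, also with 12 counts, overlapped a 24-nt tag with 1379 female and 5283 male counts. In both cases a rare tag with 0 in females sat on a position that was well counted in both sexes. The first shared its last base with the abundant tag, while the second shared neither end with it. A first or last base was shared with a tag counted in females by 258 of the 822 (31.4%, 28.2 to 34.7).

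With the sexes exchanged and the same minimum TPM (13 female counts, 4.86 TPM), 1222 tags (5.37%) were listed in females alone. Of these, 364 (29.8%, 27.2 to 32.4) overlapped any listed tag, against 59.1% of the male-alone tags. A tag counted in males was overlapped by 182 (14.9%, 12.9 to 17.0), and 90 (7.36%, 5.96 to 8.98) shared a first or last base with one. These shares were below those of the male-alone tags, with intervals that did not overlap, though overlapping tags are not independent and no test was run. The contrast thus includes a lower overlap with listed tags of any kind. It also includes the makeup of the list, where 12682 tags were listed in females alone, 3868 in males alone and 6223 were counted in both. Tags with female counts that could be overlapped were thus more numerous than tags with male counts.

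Merging overlapping listed tags placed the 822 tags in 647 loci. In 336 loci the male-alone tag was the single listed tag, and in 51 further loci of 2 or more tags every tag was listed at 0 in females. These 387 loci held 408 of the tags. The other 260 loci, with 414 tags, had 17518 female counts. With the male-alone tags left out, their other tags held 62039 male counts, and the male over female TPM ratio of a locus had a median of 4.74, or 3.55 with TMM and 2.10 with RLE factors. This ratio was above 1 in 213 loci and below 1 in 47, of which 25 had no male count other than in the male-alone tag. With the male-alone tags included, 15 loci remained below 1, but those sums restate in part the choice of tags. The locus with most female counts among the 15, NW_021837045.1 135361443 to 135361499, had 119 female and 58 male counts, 42 of them outside its male-alone tag.

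In length the male-alone tags were close to the other male-higher tags, with a larger share of short tags than the female-alone ones. Their most frequent lengths were 27 nt with 165 tags and 28 nt with 156, and together these made up 39.1% (35.7 to 42.5). Tags of 24 or 25 nt made up 22.3% (19.5 to 25.3), against 23.9% (22.8 to 24.9) of the 6404 other male-higher tags and 8.92% (7.38 to 10.7) of the 1222 female-alone tags. The longest tags, of 31 to 33 nt, accounted for 4.74% (3.40 to 6.43) of the male-alone tags, 3.89% (3.43 to 4.39) of the other male-higher tags and 1.88% (1.20 to 2.81) of the female-alone tags. Over all 22773 listed tags, 24 or 25 nt made up 18.3%, 27 or 28 nt 47.7% and 31 to 33 nt 2.52%. The shares of the list thus lay between those of the male-alone and the female-alone tags. Between male-alone and female-alone tags the intervals did not overlap at 24 or 25 nt or at 31 to 33 nt. With 1 tag kept per locus of overlapping male-alone tags, 24 or 25 nt made up 21.5% (18.4 to 24.8). The share of 31 to 33 nt was then 3.35% (2.11 to 5.03), and its interval overlapped that of the female-alone tags. Median counts were 12 to 13 at each length from 24 to 33 nt. The minimum count used to choose the tags lay just below, so these medians cannot show whether level varied with length. The highest count at a length ranged from 21 at 33 nt to 140 at 30 nt.

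**Figure D3:**
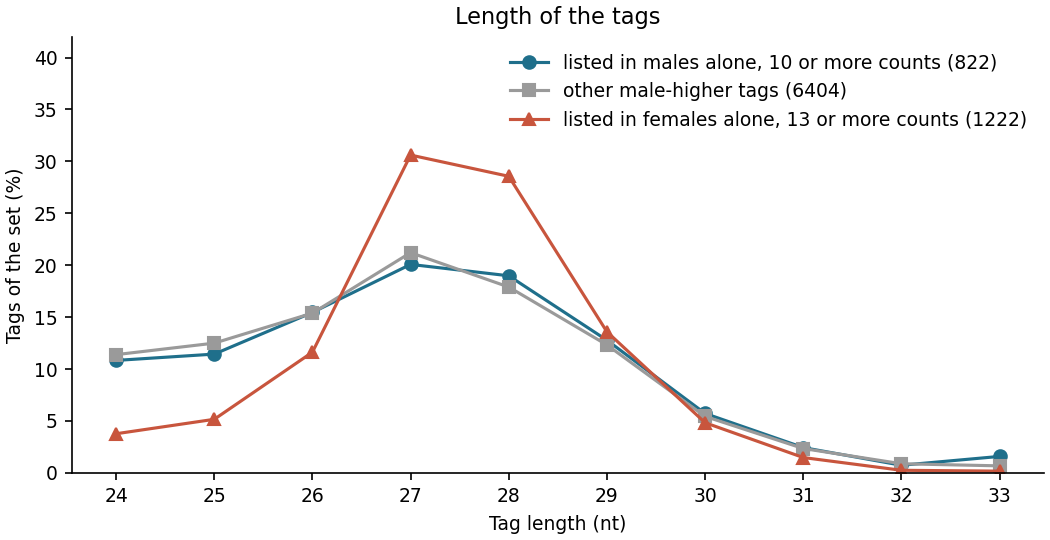
Share of tags (y axis, %) at each length (x axis, nt) for the 822 male-alone tags (blue circles), the 6404 other male-higher tags (grey squares) and the 1222 female-alone tags of 13 or more counts (red triangles). The blue and grey lines lie close together, and the red line is higher at 27 and 28 nt and lower at 24 and 25 nt.

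Length varied with where the tags lay. Of the 84 tags on the mitochondrial sequence, 30 (35.7%, 25.6 to 46.9) had 24 or 25 nt, against 153 of the 738 nuclear tags (20.7%, 17.9 to 23.8). Among the other male-higher tags, 1529 of 6404 had 24 or 25 nt, and 1383 of the 6022 outside the mitochondrial sequence. Their mitochondrial tags were thus often short as well. Tags that overlapped another male-alone tag had 31 to 33 nt in 25 of 249 cases (10.04%, 6.60 to 14.5), and those that did not in 14 of 573 (2.44%, 1.34 to 4.07). Long tags were thus more frequent among overlapping male-alone tags, with intervals that did not overlap. Of the 39 tags of 31 to 33 nt, 7 were mitochondrial. A further 8 and 6 lay in dense groups on NW_021837267.1 and NW_021838798.1, described below. Whether the contrast holds outside these places was not tested. The 101 tags with no listed tag within 10 kb had 27 or 28 nt in 43.6% (33.7 to 53.8) and 31 to 33 nt in 2 cases.

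The tags lay on 118 of the 686 sequences of the list and were gathered in part. On 59 sequences there was a single tag, while 18 sequences with 10 or more held 610. Overlap merged the 822 tags to 656 loci, of which 573 held 1 tag, 50 held 2, and 15 held 5 or more. Another male-alone tag was overlapped by 249 tags (30.3%, 27.2 to 33.6), and 523 (63.6%, 60.2 to 66.9) belonged to 87 groups in which consecutive tags were at most 10 kb apart. The other 299 had no male-alone tag within 10 kb. Of the 87 groups, 18 with 42 tags were a single locus, so 481 tags lay in 69 groups that joined separate loci. Between consecutive loci on 1 sequence the median gap was 8951 bases, with 69 of 538 gaps at 100 bases or less and 159 over 1 Mb. The spacing therefore had a close and a distant part.

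The same grouping of the 1222 female-alone tags put 32.98% (30.3 to 35.7) within 10 kb of another, and 9.57% (7.98 to 11.4) overlapped another. Of the 6404 other male-higher tags, 76.4% (75.3 to 77.4) lay within 10 kb of another of their kind. A larger set by itself brings its tags closer together. Of the other male-higher tags, 40.7% (39.5 to 41.9) overlapped another of their kind. Over all 22773 listed tags, 73.3% (72.7 to 73.8) lay within 10 kb of another and 33.9% (33.3 to 34.5) overlapped another. The female-alone set was larger than the 822 male-alone tags and had the lower shares. The shares of the other male-higher tags and of the whole list, both higher, cannot be set against theirs. Grouping is thus not shown to be particular to the male-alone tags.

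The 6 groups with the most male-alone tags were also the 6 with the most counts. They held 283 tags (34.4%) and 35.3% of the counts. The first was the mitochondrial sequence, NC_006817.1, where 84 tags in 34 loci between bases 289 and 12250 had 10 to 27 counts each and 1236 in sum. The 385 other listed tags there had 2797 female and 15394 male counts, a male over female TPM ratio of 7.15 (6.87 to 7.45), and 382 were higher in males. The male-alone tags were thus low-count tags on a sequence where 3 listed tags were higher in females. The other listed tag with most counts there, 24 nt at 4750, had 1592 male and 341 female counts.

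The next groups by number of tags were a pair of compact nuclear clusters. At NW_021837267.1 27236173 to 27243132 (6.96 kb), 55 tags in 26 loci had 10 to 40 counts each and 836 in sum. The 213 other listed tags within 10 kb had a ratio of 7.34 (6.97 to 7.74), and 210 were higher in males. The most counted of these, 30 nt at 27236465, had 627 male and 109 female counts. At NW_021838798.1 2994087 to 3000272 (6.19 kb), 41 tags in 12 loci had 10 to 38 counts each and 609 in sum. Its 126 other listed tags had a ratio of 8.57 (7.78 to 9.46), and 125 were higher in males. The most counted of these, 26 nt at 3000248, had 140 male and 26 female counts. Both clusters thus leaned to males at nearly every listed tag. No female-alone tag of 13 or more counts lay within 10 kb of the mitochondrial or these 2 nuclear groups. Tags of 24 or 25 nt numbered 15 of 55 and 16 of 41 in the nuclear groups, and tags of 31 to 33 nt numbered 8 and 6.

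The other 3 groups were wider and mixed. At NW_021839130.1 50814156 to 50842126 (27971 bases), 41 tags in 35 loci had 10 to 28 counts each, and 233 of 329 other listed tags were higher in males, with a ratio of 2.80 (2.70 to 2.90). The most counted of these, 27 nt at 50841026, had 742 male and 302 female counts. On NW_021838602.1 a pair of groups followed each other. The first, at 269751 to 290595, held 37 tags in 27 loci with 10 to 66 counts each, and 116 of its 172 other listed tags were higher in males, with a ratio of 2.38 (2.24 to 2.53). The second, at 305749 to 326683, held 25 tags in 21 loci with 10 to 42 counts each, and 115 of 148 others were higher in males, with a ratio of 3.97 (3.74 to 4.21). In these 3 groups male-alone tags lay among tags of both directions. The most counted other tags of the groups on NW_021838602.1, at 290442 (29 nt) and 320694 (28 nt), had 239 and 648 male counts and 152 and 71 female counts. Tags of 24 or 25 nt numbered 8 of 41 in the group on NW_021839130.1 and 4 of 37 and 1 of 25 in those on NW_021838602.1. Tags of 31 to 33 nt numbered 2, 0 and 0, and these numbers are too small to rank the groups by length. Of that scaffold's 383 listed tags, 62 (16.2%) were male-alone tags, against 17.9% on the mitochondrial sequence and 3.61% of the whole list.

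**Figure D4:**
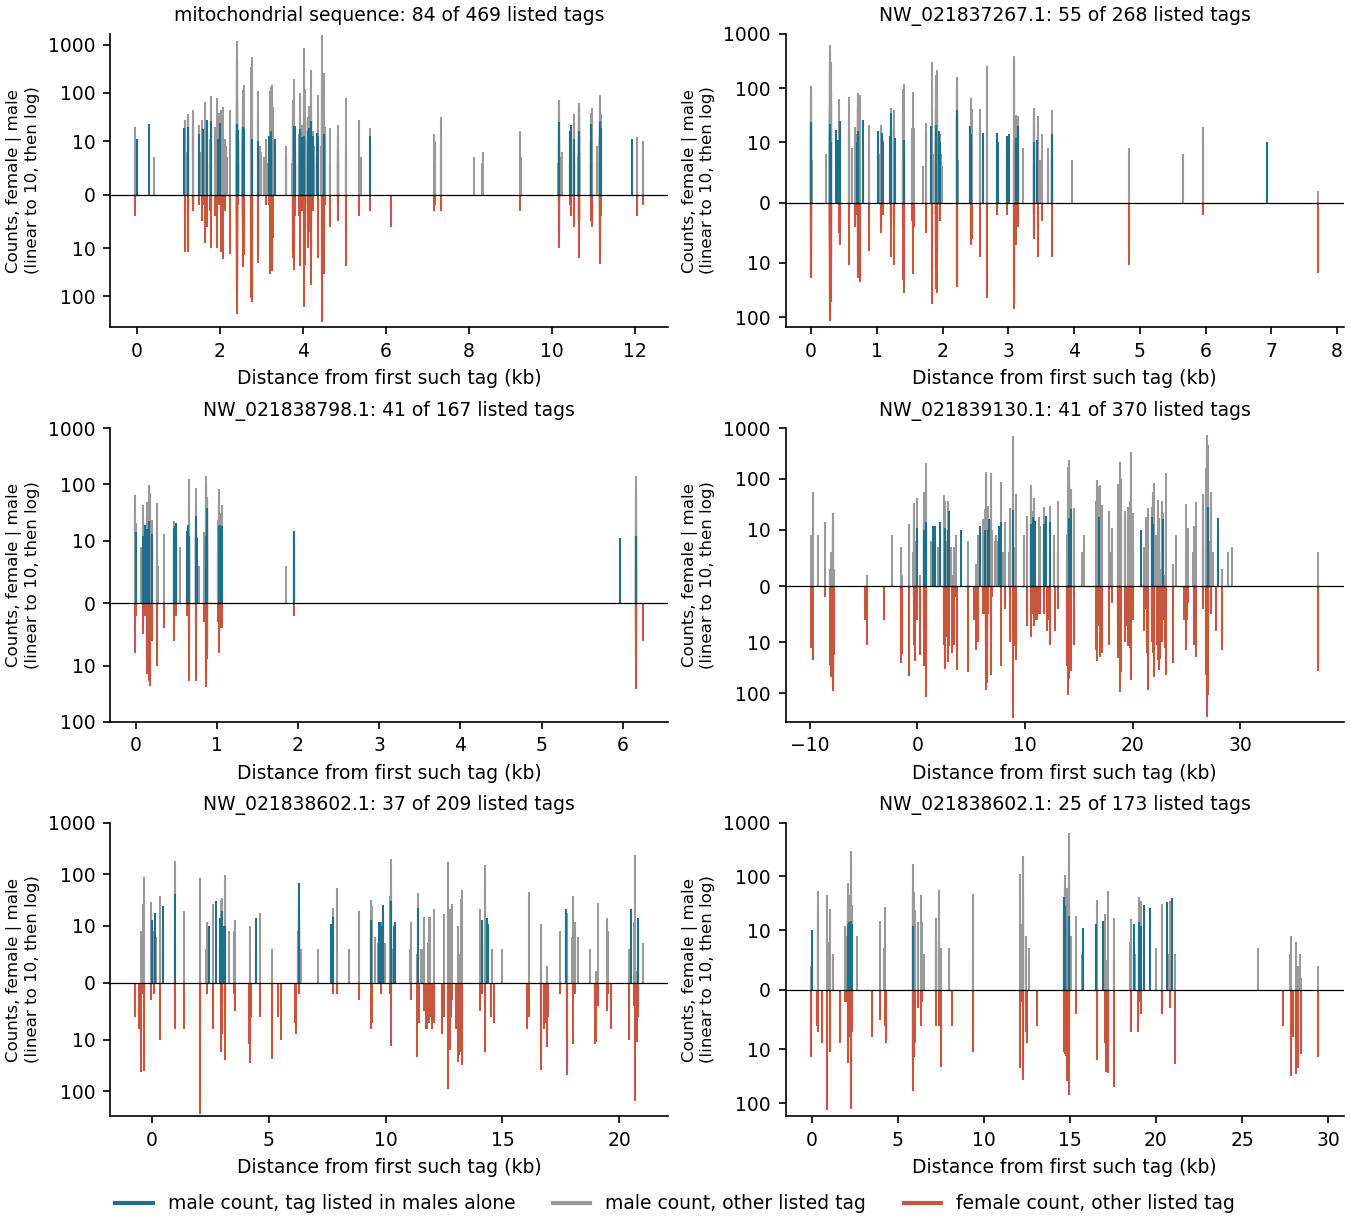
Counts of every listed tag in and within 10 kb of the 6 groups with the most male-alone tags, by distance from the first such tag (x axis, kb). Lines above 0 are male counts (blue, male-alone tags; grey, other listed tags) and lines below 0 are female counts (red), on an axis that is linear to 10 and then log; in the mitochondrial group and those on NW_021837267.1 and NW_021838798.1 few tags are higher in females, while in the other 3 groups female counts lie between the blue lines.

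The 15 loci with 5 or more male-alone tags held 92 tags, and 4 of them were mitochondrial. The densest, NC_006817.1 2859 to 2891, had 11 tags of 24 to 29 nt within 33 bases, with 10 to 20 counts each, 8 different first bases and 6 different last bases. The 25 other listed tags over it had 96 female and 713 male counts. The next, at NC_006817.1 2712 to 2764, had 9 tags, and the 28 other listed tags there had 603 female and 3211 male counts. In all 15 loci every other listed tag was higher in males, and the highest female count of any was 231. Of the 11 nuclear ones, 6 lay on NW_021838798.1 between 2994232 and 2995181, all within the compact group there. The others were a pair on NW_021837267.1, and 1 each on NW_021837156.1, NW_021838602.1 and NW_021838154.1. The locus on NW_021838154.1, at 20135268 to 20135298, lay outside the 6 groups and had 5 tags with 87 counts in sum, while 18 other listed tags had 76 female and 392 male counts.

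Tags that overlapped or lay close to the male-alone tags were mostly higher in males, and this share was lower at wider gaps. The 6962 other listed tags within 10 kb had 92525 female and 125573 male counts, a TPM ratio of 1.76 (1.75 to 1.78). Of them, 3439 (49.4%, 48.2 to 50.6) were higher in males. The share was 31.7% over the whole list and 29.2% (28.6 to 29.8) over the list without the male-alone tags. The summed ratio of 1.76 turned to 0.78 with RLE factors, a scaling that shifted every ratio towards females. Among the 1225 tags that overlapped a male-alone tag, 89.0% (87.1 to 90.7) were higher in males, with a ratio of 4.76 (4.67 to 4.84). At gaps under 100 bases the share was 65.2% (61.6 to 68.7) and the ratio 2.46 (2.40 to 2.52). From 100 bases to under 1 kb they were 45.3% (42.9 to 47.6) and 1.20 (1.17 to 1.22), and this ratio turned to 0.90 with TMM and 0.53 with RLE factors in place of the totals. From 1 to 10 kb the ratio was 0.85 (0.84 to 0.86). The share was 33.4% (31.8 to 35.0), above the 29.2% of the list without the male-alone tags. Beyond 10 kb and up to 100 kb it was 24.2% (22.4 to 26.1), and on sequences with no male-alone tag it was 18.3% (16.9 to 19.8). The share higher in males was thus largest among overlapping tags and smaller in each wider class up to 100 kb. These tags were measured in the same contrast that chose the male-alone tags, so the gradient is a description with no test.

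**Figure D5:**
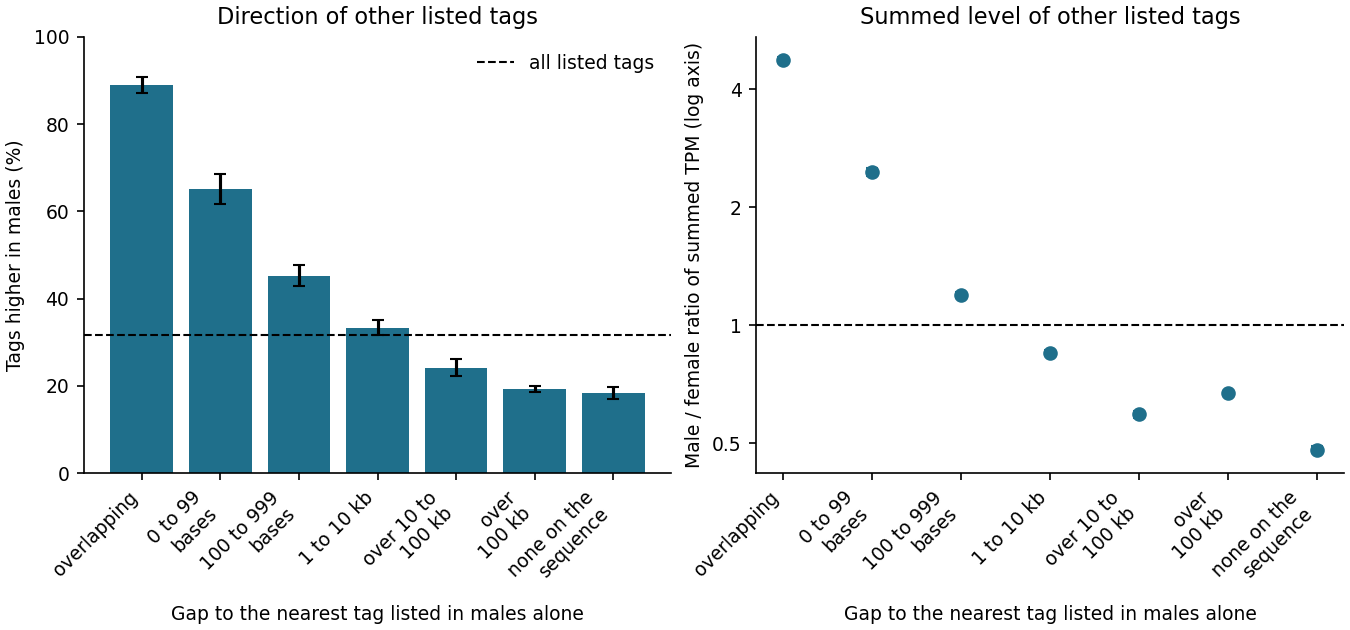
Left, share of other listed tags that were higher in males (y axis, %) by gap to the nearest male-alone tag. Bars are shares, error bars exact 95% intervals and the dashed line the whole list at 31.7%, male-alone tags included. Right, male over female ratio of their summed TPM (log axis) with 95% counting intervals, mostly smaller than the points; the ratio falls from 4.76 for overlapping tags to 0.85 at 1 to 10 kb.

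The gradient was also present in nuclear tags alone. With the mitochondrial sequence left out, 86.1% (83.7 to 88.2) of the 961 overlapping tags and 60.9% (57.0 to 64.7) of the 639 tags at gaps under 100 bases were higher in males. Taken tag by tag, 701 male-alone tags had another listed tag within 10 kb that was not male-alone, with a median of 68 such neighbours. The neighbours' sum was higher in males for 559 and higher in females for 142, or for 486 and 215 with TMM and 405 and 296 with RLE factors. Tags of the same group share many neighbours, so these are not separate cases. The 6 largest groups alone, all with a ratio above 1, held 283 of the 822 tags. For 32 of the 701 the neighbours were all listed at 0 in females, and for 33 they were all listed at 0 in males. A female-alone tag of 13 or more counts lay within 10 kb of 238 male-alone tags (28.95%, 25.9 to 32.2), against 32.8% of the other male-higher tags.

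Around the female-alone tags the mirror share was measured the same way. Of the tags that overlapped them, 86.3% (83.2 to 89.0) were higher in females, against 68.3% of all listed tags, female-alone tags included. The share was 77.8% (74.1 to 81.2) at gaps under 100 bases, 70.7% (68.5 to 72.9) from there to under 1 kb, 59.6% (58.1 to 61.1) at 1 to 10 kb and 65.3% (63.5 to 67.2) from there to 100 kb. It thus passed below that of the list and rose again, unlike the male-higher share around male-alone tags, which was lower in each wider class up to 100 kb. The neighbour with most female counts near any male-alone tag, 27 nt at NW_021838798.1 80025477, had 2525 female and 802 male counts and lay 3606 bases from it. The neighbour with most male counts, the 24-nt tag at NW_021839020.1 25193107 named above, overlapped its male-alone tag by 23 bases.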

How the data were processed

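Per the labels' protocols, total RNA was extracted with TRIzol, small RNAs were purified on a denaturing gel and adaptors were ligated to both ends. Reads were trimmed with Trimmomatic 0.30, per the submitters' processing notes. Not given in the sources used here are the genome build, the aligner and counter, the handling of tags that match several positions, the filter behind the list and the way 3 libraries became 1 column per sex. Counts were deposited as unnormalised whole numbers. The authors deposited TPM values equal to the count over a total per column, with 0 written as 0.01 and no length term. The deposited log2 values were the log2 of male over female TPM.

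The design expected 1 count column per sex and planned a description with no test. A quasi-likelihood test in edgeR was planned only for the case that replicate columns were given. As each sex has 1 column, no residual degrees of freedom remain, so no test was run and no p-value is given. The male-alone tags, comparison sets and named tags were chosen with earlier results of these data known. Named were the 12 tags with most counts, the 6 with most counts and no listed tag within 10 kb, the 6 groups with most tags and with most counts, with the most counted other tag beside each group, and loci of 5 or more tags. Stacks, the loci of highest or lowest values and the highest neighbours were picked after their values were seen. Ratios of loci without their male-alone tags, and their other scalings, were also chosen after seeing the data. Groups join tags with gaps of at most 10 kb, and loci join tags that share a base. Intervals are exact Poisson for counts and exact Clopper-Pearson for shares and, scaled by the totals, for ratios. They were computed with scipy 1.17.1 in Python 3.11.15. Grouping was checked on simulated positions. TMM and RLE factors (RLE being DESeq2's kind of size factor) came from edgeR 4.0.16 in R 4.3.3. Positions are those of the table. Tag sequences and annotation were not used here.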

Additional observations from a re-analysis of the deposited data

How the results depend on the processing

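No paired analysis was possible because the table has 1 column per sex, and for the same reason no replicate could be left out. The number of male-alone tags was 3868 with a minimum of 6 male counts, 112 with 20 and 1345 with up to 2 female counts allowed. The share with another male-alone tag within 10 kb was 59.5% without the mitochondrial sequence, 52.4% with a gap of 1 kb, 68.6% with 50 kb and 51.7% of merged loci. The overlapping share was 20.5%, and the share of 24 or 25 nt 17.9%, with a minimum of 20 counts. The male-higher share of neighbours was 46.5% without the mitochondrial sequence, 63.7% within 1 kb, 44.9% within 50 kb, 40.9% for neighbours that overlap no male-alone tag and 66.3% for those with 20 or more counts. Their male over female ratio was 1.64 when scaled to the summed counts of listed tags, 1.32 with TMM factors, 1.72 without the most counted neighbour and 0.78 with RLE factors, which turned its direction. These scalings shifted every ratio on the log2 scale by -0.10, -0.42 (TMM) and -1.17 (RLE), and were computed on a list that lacks tags under 2-fold. The ratio of each of the 6 groups stayed above 1 under all 3. With RLE factors the lowest came close to 1, at 1.05 for the group of 37 tags on NW_021838602.1 and 1.24 for that on NW_021839130.1. Low counts limit single tags, since 203 of the 822 had exactly 10.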
